A study of Mus musculus with 20 samples.

Results

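Ptgds, Sult1e1, Bhmt, Vcam1 and Hsd11b1 are 5 genes used as markers of the adult Leydig cell, and their transcripts were followed in whole mouse testis from birth to day 35. Every probe set whose platform symbol is one of these names was taken, which gave 8 of the 45101 probe sets on the array: 3 for Vcam1, 2 for Ptgds and 1 each for Sult1e1, Bhmt and Hsd11b1. Total RNA was hybridised to 20 single-channel 3' arrays, 2 for each of 10 days after birth: day 0, then days 3, 6, 8 and 10, days 14, 18 and 20, and lastly days 30 and 35. The groups differ in age alone as far as the labels say, with no strain, genotype or treatment given, and nothing in the labels tells whether the 2 arrays of a day hold separate animals, so the p-values measure the spread between these samples only. The title of 1 array says day 18, replicate 2, whereas its source name says day 0, and the title was followed.

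Leydig cells lie between the seminiferous tubules and make testosterone. In the mouse a fetal population is present at birth and an adult population appears after it, matures and takes over androgen production around puberty. Androgen synthesis runs from cholesterol through Star, Cyp11a1, Hsd3b enzymes, Cyp17a1 and Hsd17b3, whereas the 5 genes here act beside that pathway: Ptgds makes prostaglandin D2 and binds retinoids, Vcam1 is a surface ligand of leukocyte integrins, Bhmt uses betaine to turn homocysteine into methionine, Sult1e1 inactivates estrogens by sulfation, and Hsd11b1 interconverts active and inactive glucocorticoids. Most of them are also made outside the Leydig cell, for example Bhmt in liver, Vcam1 in activated endothelium and Ptgds in epididymis and brain.

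The deposited value of a probe set is an intensity on a linear scale, and arrays have a common trimmed mean of 125.0. Array medians of intensity lay between 35.0 and 43.4 on the 8 arrays of days 18 to 35 and between 29.4 and 33.4 on the 12 arrays of days 0 to 14, and the 20th percentile was 9.42 to 12.9 on the later arrays and 5.12 to 6.66 on the earlier ones. Low intensities therefore sit higher on all arrays from day 18 on. Differences are given as log2(intensity + 7.84), later minus earlier day, with the standard error (SE) of a limma fit to all 20 arrays. A probe set is called at a Benjamini-Hochberg adjusted p under 0.05 over the 37292 probe sets tested and a difference of at least 1. Day means are given ± SD over 2 arrays. Whole testis was measured, so fewer cells of a type and less RNA per cell cannot be told apart.

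The 5 genes did not share a course. Ptgds was highest at birth and Vcam1 on day 14, Bhmt and Sult1e1 were highest on day 35, and Hsd11b1 showed no clear course. Set against the label of maturation markers, Ptgds, Bhmt and Sult1e1 rose between days 20 and 35, whereas Vcam1 and Hsd11b1 were not called higher there. Of the 8 probe sets 7 passed limma's moderated F test over the 10 days, with an adjusted p under 0.05 and a range of day means of 2-fold or more, where 73.1% of all probe sets tested passed.

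**Figure D1:**
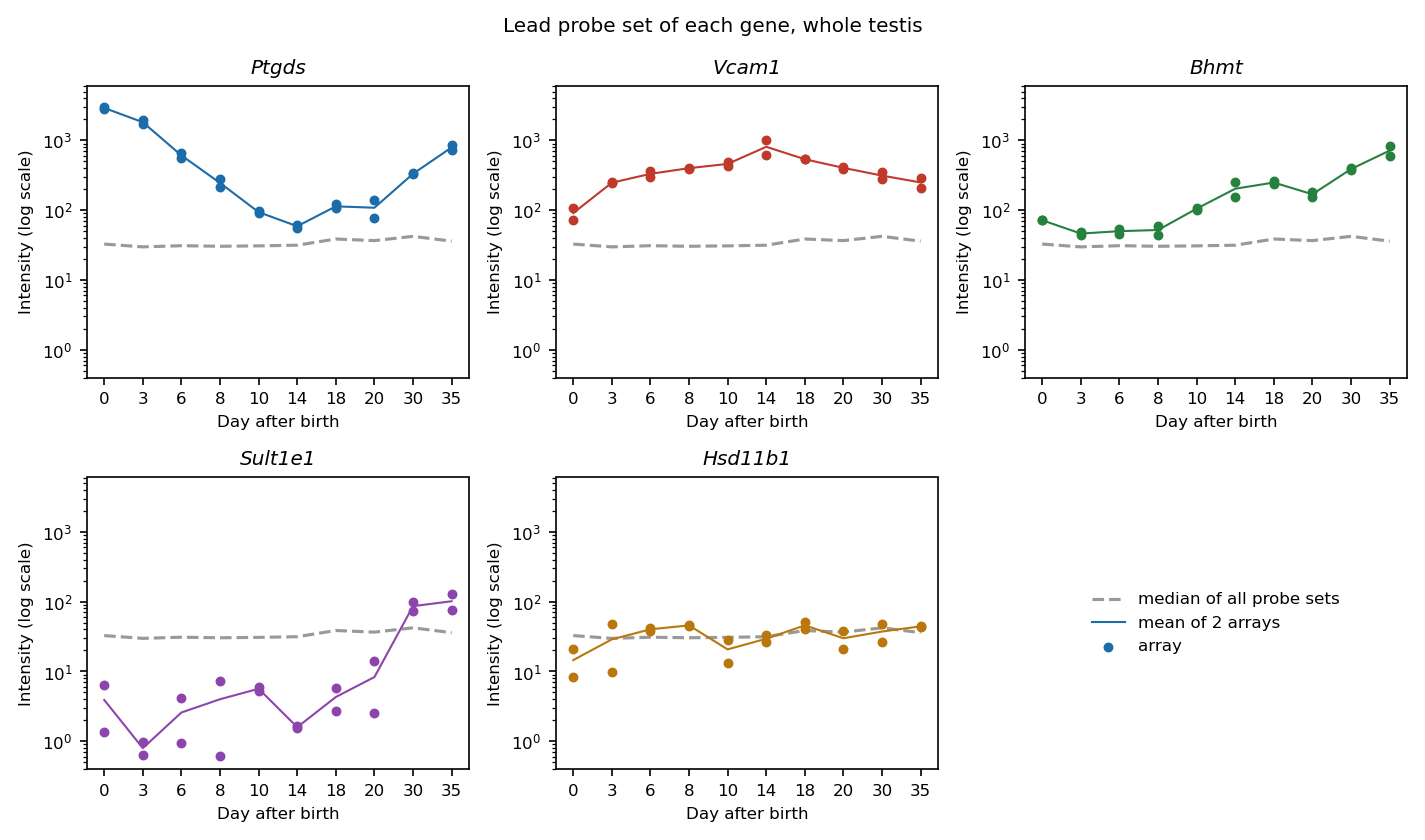
Intensity of the lead probe set (that with the highest mean) of each gene on all 20 arrays, on a log scale against the day after birth, with days spaced evenly; dots are arrays, coloured lines the mean of 2 arrays and the dashed line the mean of the array medians. Ptgds dips to 58.8 on day 14, Vcam1 peaks there at 808, and Sult1e1 lies above the dashed line on days 30 and 35 alone.

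Ptgds, the lipocalin-type prostaglandin D synthase (gene on chromosome 2), was at its highest at birth and had the widest range of day means on the log2 scale. Its lead probe set, 1423859_a_at, read 2984 and 2838 on day 0, 1709 and 1925 on day 3, 649 and 568 on day 6, 214 and 276 on day 8, 95.9 and 91.5 on day 10, and 62.2 and 55.4 on day 14. Intensities then turned: 121 and 106 on day 18, 77.0 and 140 on day 20, 325 and 338 on day 30, and 869 and 716 on day 35. The arrays of each day up to day 14 lay wholly below those of the day before, and those of day 35 lay wholly above those of day 30. Set in order of the mean, days 18 and 20 overlapped, as did days 20 and 10, and all other neighbouring days in that order were apart.

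Day 8 gave 245 ± 43.6 and day 0 gave 2911 ± 104 for this probe set, and it fell by 3.54 ± 0.18 (adjusted p = 6.72e-11). The fall was called in each step from day 3 to day 10: day 6 against day 3 (−1.57 ± 0.18), day 8 against day 6 (−1.29 ± 0.18) and day 10 against day 8 (−1.31 ± 0.18). Day 20 against day 8 gave −1.17 ± 0.18 (adjusted p = 1.73e-05), a call that ended without day 8 replicate 2 (−0.99), without day 20 replicate 1 (−0.77) and under quantile normalization (−0.97). The level was 792.5 ± 108 on day 35, against 108 ± 44.4 on day 20, and Ptgds rose by 2.83 ± 0.18 (adjusted p = 2.66e-10). It rose in both of the last steps, day 30 against day 20 (1.60 ± 0.18) and day 35 against day 30 (1.23 ± 0.18). Day 35 remained below day 0 by 1.87 on the log2 scale (−1.87 ± 0.18, adjusted p = 1.52e-08).

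The other Ptgds probe set, 1423860_at, followed the same turn, with 1205 ± 24.7 on day 0, 20.8 ± 2.91 on day 14, 54.7 ± 7.28 on day 20 and 468 ± 78.1 on day 35. It fell by 3.90 ± 0.22 between days 0 and 8 and rose by 2.92 ± 0.22 between days 20 and 35. Day 35 was below day 0 here too (−1.36 ± 0.22), and all of these were called. For day 20 against day 8 it gave −0.38 ± 0.22 (adjusted p = 0.152) and was not called. The day means of both probe sets correlated at r = 0.99 over the 10 days, as a description.

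Vcam1, the adhesion molecule that binds the α4 integrins (gene on chromosome 3), climbed early and was highest in the middle of the course. The lead probe set, 1448162_at, read 108 and 73.4 on day 0, 252 and 242 on day 3, 302 and 361 on day 6, 405 and 393 on day 8, 427 and 492 on day 10, and 616 and 999.9 on day 14. After that day it read 533 and 538 on day 18, 420 and 387 on day 20, 279 and 347 on day 30, and 290 and 209 on day 35. The peak thus rests on 2 arrays that lie far apart, although both exceed every array of any other day. In the order of the means, days 20 and 8 overlapped, as did days 6 and 30, days 30 and 35, and days 35 and 3.

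Vcam1 rose by 2.07 ± 0.20 on day 8 against day 0 (399 ± 8.44 on day 8 and 90.9 ± 24.7 on day 0, adjusted p = 3.36e-07). Most of that came in the first step, day 3 against day 0 (1.39 ± 0.20, adjusted p = 0.000622), the 1 called step of this probe set. Day 20 against day 8 gave 0.01 ± 0.20, with arrays of both days overlapping. For day 35 against day 20 the difference was −0.70 ± 0.20 (adjusted p = 0.00842), under the 2-fold limit. Day 35 stood above day 0, at 249 ± 57.5 against 90.9 ± 24.7 (1.38 ± 0.20, adjusted p = 3.12e-06).

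The 3 Vcam1 probe sets agreed on the early rise and parted later. 1415989_at gave 1.40 ± 0.15 and 1451314_a_at gave 1.41 ± 0.24 for day 8 against day 0, both called. 1415989_at was also highest on day 14 (318 ± 43.6) and was down to 114 ± 2.66 on day 35. 1451314_a_at was highest on day 30 instead (149 and 268 on its 2 arrays) and read 195 and 197 on day 35. Between days 35 and 20 it gave 0.62 ± 0.24 (adjusted p = 0.0473), opposite in sign to the lead probe set, and neither reached 2-fold. Day 35 against day 0 was called for 1451314_a_at (2.36 ± 0.24) and not for 1415989_at (0.76 ± 0.15). The difference between probe sets was not tested.

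**Figure D2:**
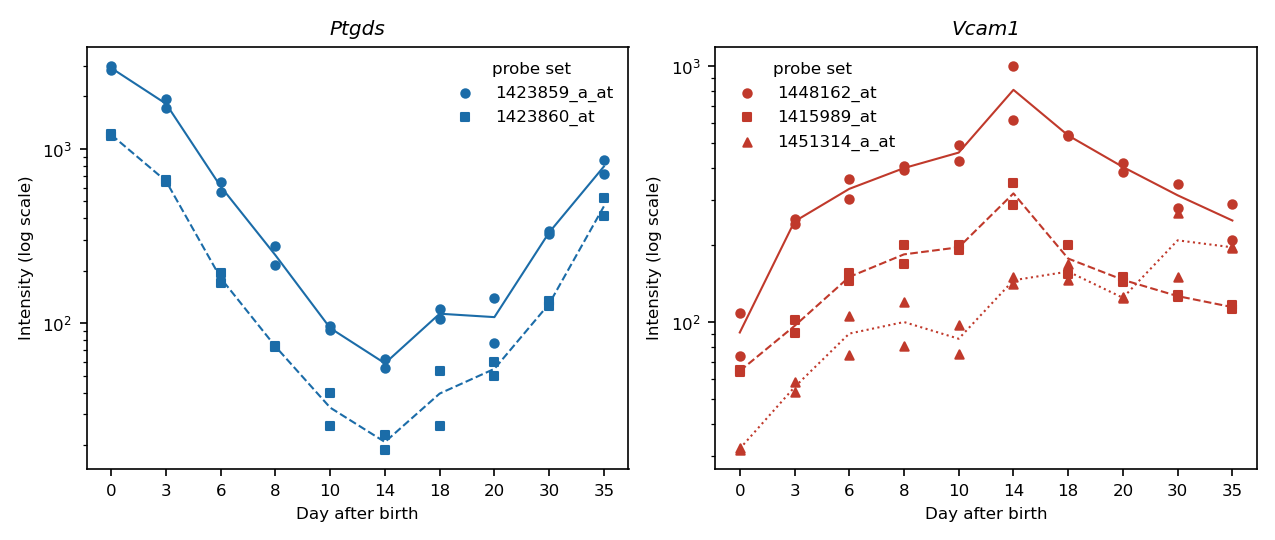
Intensity of the 2 Ptgds and 3 Vcam1 probe sets on a log scale against the day after birth (days spaced evenly), with symbols for arrays and lines for the mean of 2 arrays. Both Ptgds probe sets are lowest on day 14, and the Vcam1 probe set 1451314_a_at is the one with its highest mean on day 30.

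Bhmt, betaine-homocysteine methyltransferase (gene on chromosome 13), rose through the second part of the course. Probe set 1450624_at read 71.8 and 71.5 on day 0, 44.3 and 48.1 on day 3, 46.2 and 53.8 on day 6, and 44.7 and 59.3 on day 8. From there it read 102 and 108 on day 10, 153 and 252 on day 14, 234 and 263 on day 18, 184 and 153 on day 20, 372 and 403 on day 30, and 830 and 596 on day 35. Days 3, 6 and 8 overlapped, and both arrays of day 0 lay above them. The means of days 18, 14 and 20 followed each other with overlapping arrays, and days 30 and 35 were each apart from all earlier days.

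Day 8 against day 0 gave −0.42 ± 0.20 (adjusted p = 0.2) and was not called. Bhmt rose by 1.57 ± 0.20 on day 20 against day 8 (169 ± 21.8 on day 20 and 52.0 ± 10.3 on day 8, adjusted p = 1.84e-06) and by 2.01 ± 0.20 on day 35 against day 20 (713 ± 165 on day 35, adjusted p = 1.64e-07). Its rise over the whole course, day 35 against day 0, was 3.16 ± 0.20 (adjusted p = 2.79e-11). Among single steps day 30 against day 20 was called (1.17 ± 0.20), while day 10 against day 8 (0.93 ± 0.20, adjusted p = 0.0181), day 14 against day 10 (0.86 ± 0.20) and day 35 against day 30 (0.85 ± 0.20) had adjusted p under 0.05 and stayed under 2-fold.

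Sult1e1, the estrogen sulfotransferase (gene on chromosome 5), was at the low end of the arrays until day 20 and stood clear of it on days 30 and 35. Probe set 1420447_at read 1.35 and 6.47 on day 0, 0.633 and 0.963 on day 3, 4.23 and 0.938 on day 6, 7.40 and 0.610 on day 8, 5.29 and 6.03 on day 10, 1.63 and 1.55 on day 14, 2.75 and 5.86 on day 18, and 14.1 and 2.52 on day 20. On day 30 it read 74.2 and 98.3, and on day 35 it read 127 and 75.3. All 4 arrays of days 30 and 35 exceeded every earlier array, and those 2 days overlapped each other. Ranked within its array, this probe set lay at percentiles of 66.1 to 77.9 on days 30 and 35, and at the 27.7th percentile or below on every array up to day 20.

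Sult1e1 rose by 2.81 ± 0.43 on day 35 against day 20 (101 ± 36.9 on day 35 and 8.33 ± 8.21 on day 20, adjusted p = 3.12e-05) and by 3.21 ± 0.43 on day 35 against day 0 (adjusted p = 1.72e-06). The size leans on how low values are treated: with values floored at the pooled median both differences were 1.503 and still called. The step of day 30 against day 20 was called (2.63 ± 0.43) and no other was. Day 8 against day 0 (−0.02 ± 0.43) and day 20 against day 8 (0.41 ± 0.43) compare values from that low end of the arrays and were not called.

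Bhmt and Sult1e1, the pair with their highest means on day 35, are shown with the 250 bases before their annotated starts (RefSeq, GRCm38.p6, minus strand of both chromosomes, written 5′ to 3′ along the gene), since both hold the 7-letter motif AAGGTCA that NR5A1, the steroidogenic factor of Leydig and Sertoli cells, can bind. Capitals mark the match, which reads TGACCTT where it lies on the opposite strand. The Bhmt window is chr13:93637759-93638008 and the Sult1e1 window is chr5:87591612-87591861.
Bhmt: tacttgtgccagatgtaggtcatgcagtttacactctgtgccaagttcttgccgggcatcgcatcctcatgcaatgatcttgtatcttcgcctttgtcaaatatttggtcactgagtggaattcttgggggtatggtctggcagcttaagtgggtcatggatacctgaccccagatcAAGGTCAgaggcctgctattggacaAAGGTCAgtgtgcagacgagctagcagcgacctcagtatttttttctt
Sult1e1: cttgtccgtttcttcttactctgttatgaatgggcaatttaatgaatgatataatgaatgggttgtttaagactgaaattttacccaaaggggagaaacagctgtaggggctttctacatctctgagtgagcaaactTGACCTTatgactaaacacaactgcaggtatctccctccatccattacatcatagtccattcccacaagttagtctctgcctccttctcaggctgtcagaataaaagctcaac
In Bhmt the matches begin at −73 and −48 from the start on the strand of the gene, and in Sult1e1 the match begins at −113 on the opposite strand. AAGGTCA on either strand is present in 4.08% of the 32851 promoter windows of the same length in the table. Of the 4 member genes with an entry, Ptgds and Hsd11b1 have no match in this window, and none of the 4 has TGTTCT (16.1% of windows) or TATAAA (12.4% of windows) on either strand. A match describes the sequence only. Nr5a1 itself had 678 ± 5.51 on day 0 and 143 ± 11.05 on day 35 in whole testis, which does not tell its level in Leydig cells. Binding was not tested.

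Hsd11b1, which in most tissues regenerates active corticosterone (gene on chromosome 1), lay in the lower or middle range of all probe sets throughout. Probe set 1449038_at read 8.44 and 20.7 on day 0, 9.79 and 47.9 on day 3, 38.0 and 42.4 on day 6, 47.0 and 44.4 on day 8, 28.3 and 13.2 on day 10, and 32.8 and 26.1 on day 14. Later days gave 51.4 and 40.1 on day 18, 38.6 and 21.3 on day 20, 48.0 and 26.6 on day 30, and 44.1 and 44.5 on day 35. Day 0 was the lowest by its mean, and 8 of the 9 neighbouring pairs in the order of the means overlapped, the exception being days 35 and 6. On 15 of the 20 arrays the value exceeded the 40th percentile of the array.

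Over the 10 days Hsd11b1 was the 1 probe set of the 8 that did not pass the F test (adjusted p = 0.110). Day 35 against day 0 was called, at 1.27 ± 0.45 (44.3 ± 0.298 on day 35 and 14.6 ± 8.65 on day 0, adjusted p = 0.0171). That call ended without day 0 replicate 1 (0.87), without either array of day 35 (1.28 and 1.27), with a larger added constant (0.89) and with values floored at the pooled median (0.36). The call held under quantile normalization, where all 8 probe sets were called, and with a common median. Low intensities as a whole sit higher on the arrays of day 35 than on those of day 0. Their part in this result was not tested beyond these settings. Day 8 against day 0 gave 1.31 ± 0.45 with an adjusted p = 0.0538 and was not called, while it passed in a fit to 1 probe set a gene (adjusted p = 0.0405) and under several other settings. Day 20 against day 8 (−0.54 ± 0.45) and day 35 against day 20 (0.50 ± 0.45) did not pass.

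Read by interval, calls among the 8 probe sets went both ways up to day 20 and 1 way between days 20 and 35. Day 8 against day 0 had 3 of 8 called higher (all Vcam1), where 2.45% of all probe sets tested were, and 2 of 8 lower (both Ptgds), where 2.42% were. Day 20 against day 8 had 1 higher (Bhmt) and 1 lower (Ptgds), where 18.4% and 18% of all were called. Day 35 against day 20 had 4 higher (both Ptgds, Bhmt and Sult1e1) and 0 lower, where 6.71% and 7.28% of all were called. An unadjusted limma p under 0.05 was reached there by 7 of the 8 in either direction. These include the Vcam1 probe sets 1448162_at (−0.70) and 1415989_at (−0.33), which were lower on day 35. The share of all probe sets at that unadjusted level was not counted. Day 35 against day 0 had 5 higher (2 of Vcam1, Bhmt, Sult1e1 and Hsd11b1) and 2 lower (both Ptgds), where 22.9% and 28.1% of all were called. Probe sets of 1 gene share their target and are no separate evidence, and the comparisons share arrays.

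The median difference of the 5 lead probe sets was 2.01 for day 35 against day 20, against −0.17 over all probe sets tested, and 1.38 against −0.13 for day 35 against day 0. For the earlier intervals the median of the 5 was −0.02 (day 8 against day 0) and 0.01 (day 20 against day 8), against −0.03 and −0.02 over all. Setting every array to a common median moved the median of all probe sets for day 20 against day 8 to −0.24 and that for day 35 against day 0 to −0.25. It also changed the balance of all calls, from which 50.3% were higher for day 8 against day 0 (61.7% with the common median) and 50.6% for day 20 against day 8 (37.8% with it). No member call in these 4 comparisons changed direction with it.

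**Figure D3:**
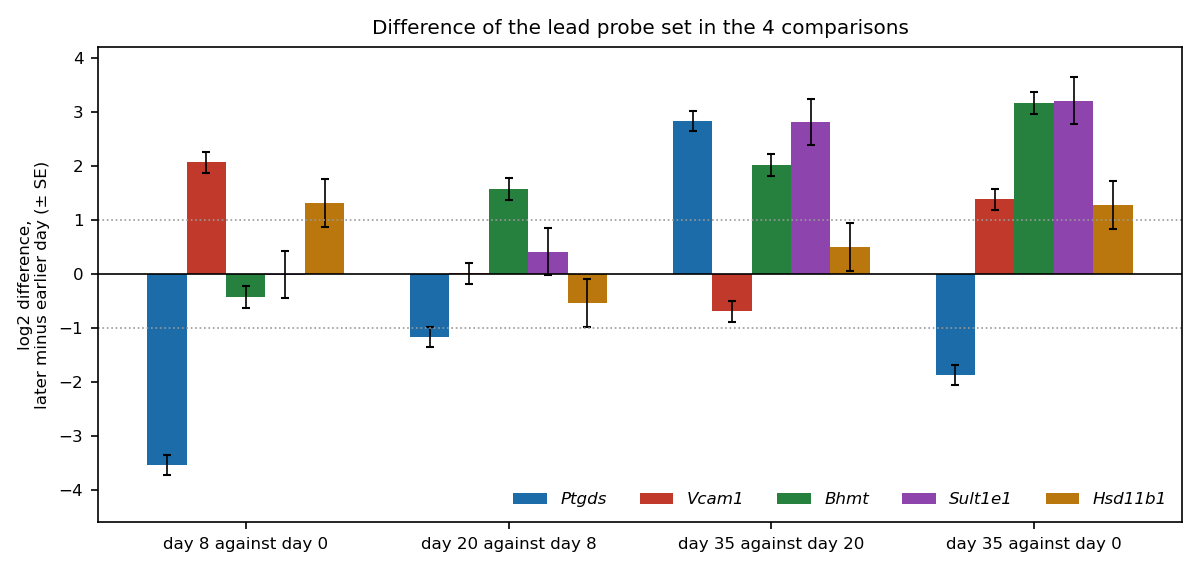
log2 difference (later minus earlier day, bars, with SE as error bars) of the lead probe set of each gene in 4 comparisons of days; dotted lines mark a difference of 1 in either direction. Ptgds stands at −3.54 for day 8 against day 0 and at 2.83 for day 35 against day 20, where Vcam1 is the 1 gene below 0.

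Between neighbouring days, 13 calls fell on 8 probe sets over 9 steps. Day 3 against day 0 had 1 (0.308% of all probe sets were called in either direction), day 6 against day 3 had 2 (1.17%), day 8 against day 6 had 2 (0.139%) and day 10 against day 8 had 2 (0.601%). Day 30 against day 20 had 4 (14.6%) and day 35 against day 30 had 2 (2.44%). The limma fit called 0 of 8 for day 14 against day 10 (3.12% of all), day 18 against day 14 (16.8% of all) and day 20 against day 18 (2.52% of all). An unadjusted limma p under 0.05 was reached in these steps by 6, 4 and 1 of the 8. How many of all probe sets reached that unadjusted level was not counted. Ptgds accounts for all 8 calls in the steps from day 3 to day 10 and from day 30 to day 35.

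As a description over the 10 day means, which all come from the same arrays, the lead probe sets of Ptgds and Vcam1 ran opposite ways (r = −0.91), and those of Bhmt and Sult1e1 ran together (r = 0.81). The Vcam1 probe set 1451314_a_at differed from its lead here, with r = −0.59 and −0.54 to the 2 Ptgds probe sets and r = 0.80 to Bhmt. The other pairs of lead probe sets had r between −0.31 and 0.48. Among 14945 genes compared, the courses most like Ptgds were those of Mras, a Ras-family GTPase (r = 0.98), Hsd17b3, the enzyme that makes testosterone from androstenedione (r = 0.95), and Robo2, an axon guidance receptor (r = 0.94), and 18 genes exceeded r = 0.9. For Vcam1 they were Fgl2, a fibrinogen-like protein of macrophages and T cells (r = 0.96), Lmbr1 (r = 0.95) and Cables2 (r = 0.94), with 26 genes over 0.9.

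Bhmt was most like Mtbp (r = 0.98), the epoxide hydrolase Ephx1 (r = 0.98) and Mfsd13b (r = 0.97), with 458 genes over 0.9. Sult1e1 was most like Paqr5 (r = 0.998), Pkib, an inhibitor of protein kinase A (r = 0.996), and Spata7 (r = 0.995), and 735 genes exceeded 0.9, so its late step is a common course in these arrays. Genes of spermatids also stepped up there: the summed intensity of 9 spermatocyte and spermatid genes was 58990 to 60442 on day 30 and 12679 to 12956 on day 20. Hsd11b1 had no gene over 0.9, and its closest were Zdhhc22, Prg4 and Paqr6 (r = 0.86, 0.86 and 0.85).

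**Figure D4:**
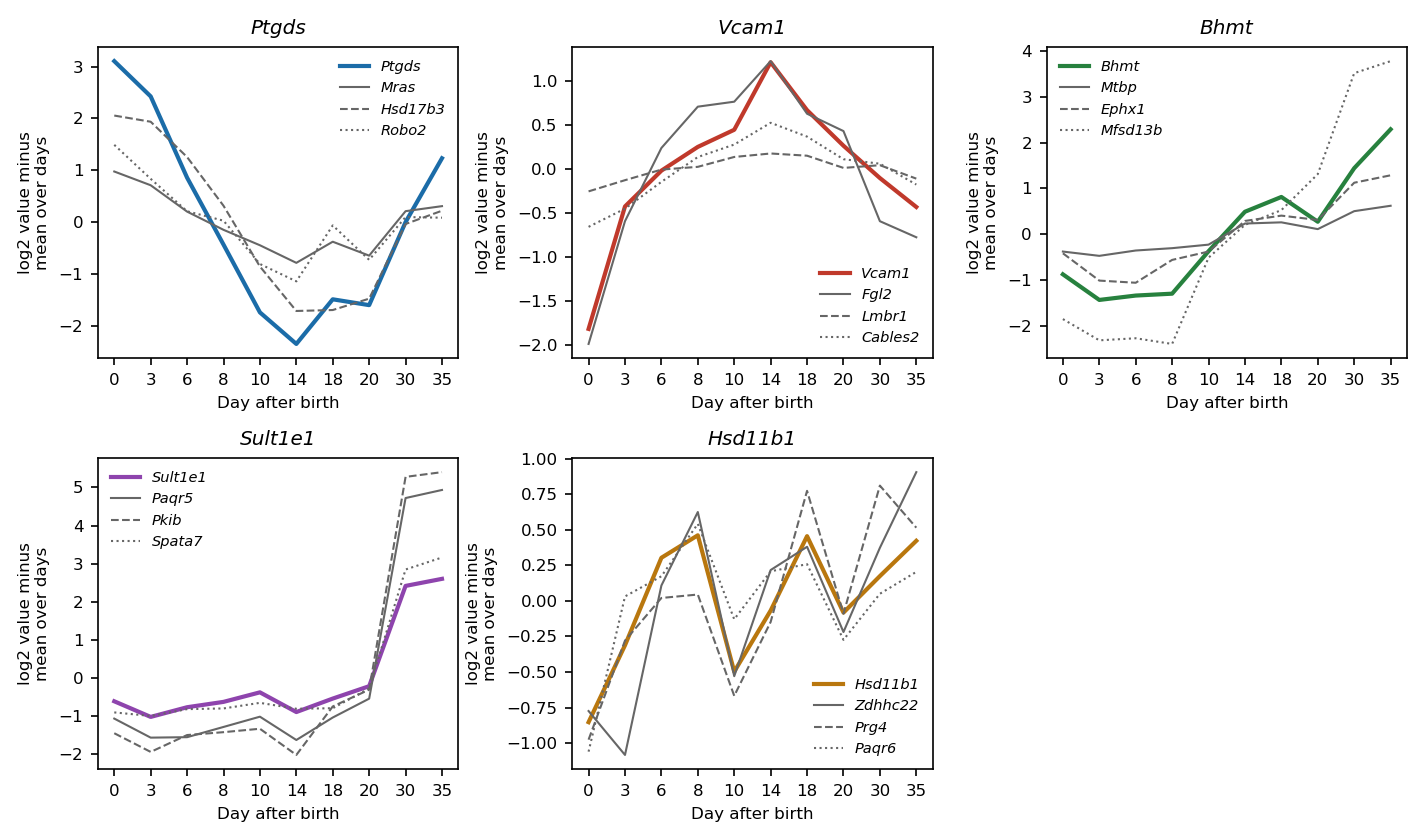
Day means of log2(intensity + 7.84), each centred on its mean over the 10 days, against the day after birth (days spaced evenly); the coloured line is the lead probe set of the gene named above each panel and grey lines are the 3 genes with the highest correlation to it. Hsd17b3 shares the dip and partial recovery of Ptgds, and Fgl2 the day 14 peak of Vcam1.

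Leydig cell markers were present in all arrays and followed their own courses. Their summed intensity over 6 of 8 listed genes (Star, Cyp11a1, Hsd3b1, Cyp17a1, Hsd17b3 and Nr5a1, with Insl3 and Lhcgr not analysed here) was 9138 to 9412 on day 0, 2595 to 2719 on day 20 and 3600 to 4905 on day 35. For day 8 against day 0, 4 of 6 fell (3 under quantile normalization or a common median), where 2.42% of all probe sets tested were called lower. The falls were led by Cyp11a1, the side-chain cleavage enzyme (−1.79 ± 0.16), and Hsd17b3 (−1.74 ± 0.13). For day 35 against day 20, 2 rose, Cyp17a1 (2.06 ± 0.12) and Hsd17b3 (1.70 ± 0.13), where 6.71% of all were called higher. Hsd3b1 fell by 1.03 ± 0.14, where 7.28% of all were called lower, and its call ended under quantile normalization. The intensity of Hsd17b3 was 1279 ± 51.8 at birth, then 103 ± 2.14 by day 20 and 353 ± 6.35 by day 35. Hsd17b3 is also listed with the adult Leydig genes below, and whole testis does not tell which cells made it on each day.

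Fetal Leydig markers were lower on day 35 than at birth, and several adult ones were higher on day 35 than on day 20. Over 7 fetal Leydig genes the sum was 235 to 270 on day 35 and 2676 to 2713 on day 0. For day 8 against day 0, 3 of 6 tested fell, led by Cbln1 (−3.85 ± 0.38), where 2.42% of all probe sets tested were called lower. Among 6 of 12 adult Leydig genes other than the members, 4 rose and 1 fell for day 35 against day 20, where 6.71% and 7.28% of all were called. The risers were Klk1b27 (3.995 ± 0.37), Klk1b24 (2.10 ± 0.28), Klk1b21 (2.002 ± 0.35) and Hsd17b3, and the first 3 are kallikreins so alike in sequence that probes may not separate them. Akr1c14 fell by 1.29 ± 0.28. Against day 0, day 35 had 3 of these 6 adult genes called higher and 2 lower, where 22.9% and 28.1% of all were called. Hsd17b3 (1279 ± 51.8 on day 0, 353 ± 6.35 on day 35) and Akr1c14 (200 ± 5.39 and 18.1 ± 6.30) ended below birth. Klk1b27 stood at 21.6 ± 13.3 on day 20, with 367 ± 121 on day 30 and 439 ± 40.1 on day 35, so its largest called step was day 30 against day 20 (3.71 ± 0.37), the step in which Sult1e1 rose.

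Genes of other cells moved with some members. The 10 macrophage genes summed to 770 to 776 on day 0, 2828 to 3540 on day 14, 3002 to 3011 on day 18 and 1508 to 1601 on day 35, so their highest mean fell on the day of the Vcam1 peak, with the arrays of days 14 and 18 overlapping. Their receptor gene Csf1r had 753 ± 117 on day 14. The 8 endothelial genes summed to 321 to 322 on day 14 and 861 to 948 on day 0, the reverse of Vcam1 on those days. Their part in the Vcam1 result was not tested.

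For day 35 against day 20, where 6.71% of all probe sets tested were called higher, 1 of 2 adipose tissue genes tested was too. This was the fat cell hormone gene Adipoq, which was at 1.52 ± 0.142 on day 14 and 41.7 ± 26.2 on day 20, with 380 ± 21.5 on day 30 and 213 ± 103 on day 35, and rose by 2.18 ± 0.46 for day 35 against day 20. Fabp4 was at 6.13 ± 1.47 on day 35 and 37.5 ± 50.01 on day 20, and Lep at 12.7 ± 4.08 on day 35 and 15.5 ± 13.3 on day 20. The sum of the 3 measured of 5 listed was 31.5 to 158 on day 20, 374 to 433 on day 30 and 155 to 308 on day 35. The part of Adipoq-expressing tissue in the rises of Sult1e1, Bhmt and Ptgds was not tested. The 6 liver genes summed to 189 to 203 on day 35 and 75.5 to 76.6 on day 0. Of 5 tested, 1 rose for day 35 against day 20, where 6.71% of all were called higher. Low intensities sit higher on all arrays from day 18 on, and the part of that shift in the liver sum was not tested. The 10 epididymal genes summed to 297 to 311 on day 0, 89.5 to 114 on day 14 and 174 to 211 on day 35. Of 7 tested, 0 rose and 1 fell for day 35 against day 20, where 6.71% and 7.28% of all were called. Sertoli cell genes (10) summed to 6742 to 6760 on day 35 and 13896 to 14508 on day 0, and peritubular myoid genes (6) to 3191 to 3453 and 4449 to 4613 on those days.

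**Figure D5:**
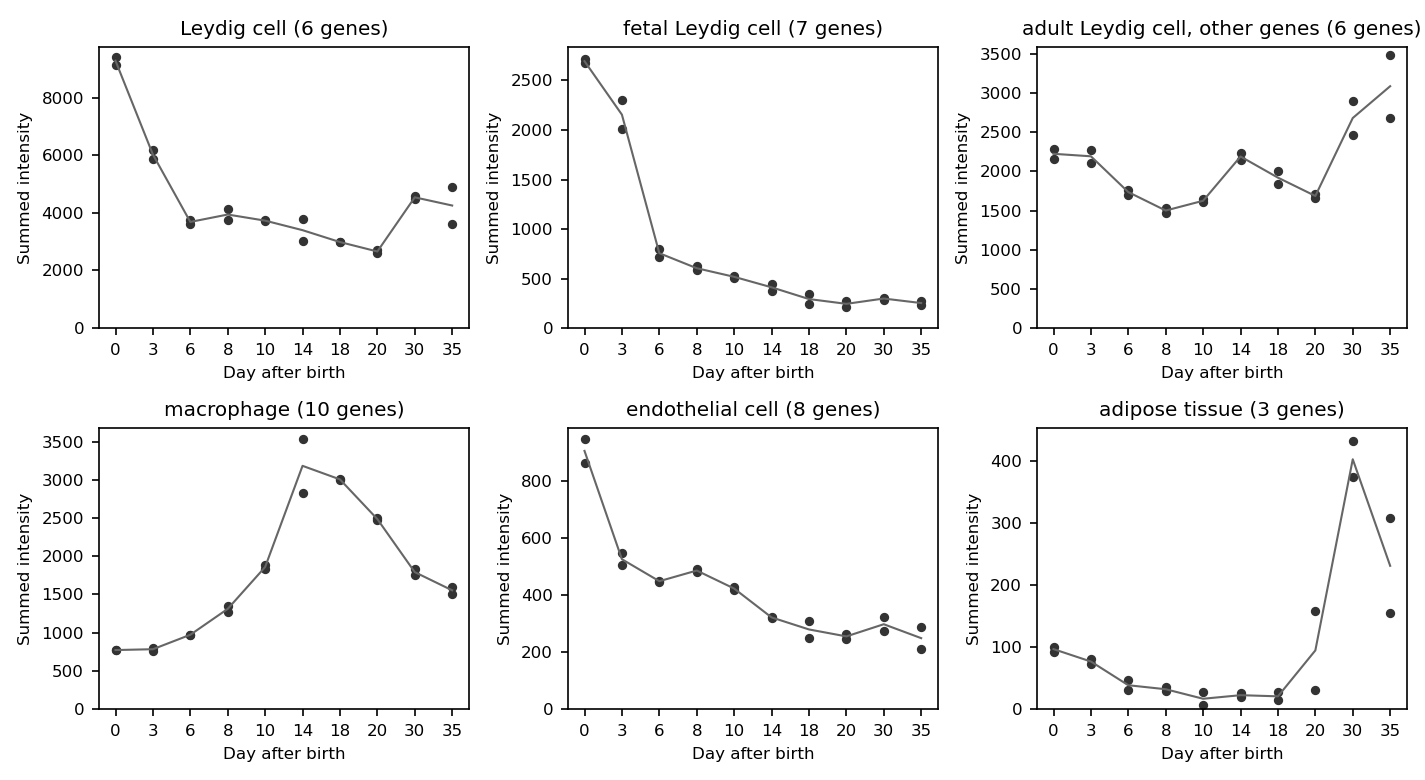
Summed intensity of the measured genes of 6 marker lists on each array (dots; lines join day means), from 0 on each axis, against the day after birth (days spaced evenly). Fetal Leydig genes end low, macrophage genes have their highest mean on day 14, and the adipose sum is highest on day 30.

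Of 7 genes tested around prostaglandin D2, limma called 0 for day 8 against day 0 (3 had an unadjusted p under 0.05), when both Ptgds probe sets fell. Of all probe sets tested, 2.45% were called higher and 2.42% lower there. For day 35 against day 20, 1 of the 7 rose and 2 fell, where 6.71% and 7.28% of all were called. Ptgdr, a receptor of prostaglandin D2, was called higher from values at the low end of the arrays, so no size is given. Its mean was 29.5 ± 9.96 on day 35, below the array medians, and 7.92 ± 0.809 on day 20, below the 20th percentiles. Pla2g4a, which releases arachidonic acid (−1.49 ± 0.18), and Abcc4, an exporter of prostaglandins (−1.002 ± 0.31), fell, with 1 of these lower calls lost under a common median. Ptgs2, the inducible cyclooxygenase, was called higher for day 20 against day 8, with 43.4 ± 8.43 on day 20 and 4.24 ± 3.69 on day 8, the last a mean below the 20th percentile of both arrays.

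Itga4 and Itgb1, 2 chains of an integrin that binds Vcam1, fell between days 0 and 35. Itga4, the α4 chain that binds Vcam1, fell by 1.85 ± 0.22 for day 8 against day 0, with 88.1 ± 6.08 on day 8 and 340 ± 61.7 on day 0, in the interval in which Vcam1 rose. It was the 1 called gene of 12 tested there, where 4.87% of all probe sets tested were called in either direction. For day 35 against day 0, 1 of the 12 rose and 6 fell, where 22.9% and 28.1% of all probe sets tested were called. The falls were led by Itgb1, the partner chain of Itga4 (−3.03 ± 0.14), and by Itga4 (−2.97 ± 0.22) and Msn (−2.58 ± 0.15).

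Among genes of methionine and betaine metabolism, 1 of 12 rose and 6 fell for day 35 against day 0, over which Bhmt rose. Of all probe sets tested, 22.9% were called higher and 28.1% lower there. Under quantile normalization 2 of the 12 rose and 3 fell. For day 20 against day 8, 2 of 12 rose and 3 fell, where 18.4% and 18% of all were called, so the list was near the whole array. Chdh, which makes betaine aldehyde from choline, rose by 2.36 ± 0.21 (295 ± 20.4 on day 20 and 51.2 ± 0.937 on day 8). Mat2b (−1.53 ± 0.15), Ahcy (−1.25 ± 0.12) and Mtr, the other methionine synthase (−1.15 ± 0.12), fell. Day 35 against day 20 had 0 of 12 called by limma in this list, where 6.71% of all were called higher and 7.28% lower. An unadjusted limma p under 0.05 was reached by 5 of the 12.

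Of 10 estrogen and sulfation genes, 1 rose and 5 fell for day 20 against day 8, where 18.4% and 18% of all probe sets tested were called. The largest differences were those of Hsd17b1, which makes estradiol (−2.76 ± 0.33), Papss1, which makes the sulfate donor PAPS (−2.15 ± 0.17), and Slc35b2, which carries PAPS into the Golgi (−1.81 ± 0.22). Papss2, the other PAPS synthase, gave −0.84 ± 0.21 there and was not called. For day 35 against day 20, when Sult1e1 rose, Gper1 rose (1.40 ± 0.39) and Sult1a1, a phenol sulfotransferase, fell by 1.22 ± 0.22. That is 1 of 10 in each direction, where 6.71% of all were called higher and 7.28% lower. Papss1 (−0.50 ± 0.17) and Papss2 (−0.32 ± 0.21) were not called in that comparison.

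Beside Hsd11b1, 10 genes of glucocorticoid handling were tested. For day 8 against day 0, Tsc22d3 (2.02 ± 0.14) and Zbtb16 (1.96 ± 0.18), both induced by glucocorticoids in many cells, rose. Whole testis does not tell which cells made these 2 transcripts. Hsd11b2, the inactivating enzyme, fell by 1.12 ± 0.35, a call that ended under quantile normalization. No other gene of the list was called there, and uncalled means went either way. Of all probe sets tested, 2.45% were called higher and 2.42% lower. Fkbp5 had 714 ± 39.45 on day 0 and 587 ± 57.8 on day 8, and Sgk1 206 ± 27.0 and 158 ± 15.3. Per1 had 86.8 ± 10.4 and 164 ± 29.2. The part of glucocorticoids in these changes was not tested. For day 20 against day 8, 6 of 10 fell and 0 rose, where 18% of all probe sets tested were called lower and 18.4% higher. Zbtb16 (−2.18 ± 0.18) and Tsc22d3 (−1.96 ± 0.14) came first. The receptor gene Nr3c1 fell by 1.14 ± 0.14 for day 35 against day 20, and H6pd, which supplies the cofactor of Hsd11b1, fell by 1.40 ± 0.21 over the whole course. Of 11 steroidogenic genes tested, 0 rose and 7 fell for day 35 against day 0, where 22.9% and 28.1% of all were called.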

How the data were processed

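Testis RNA was isolated with Trizol, amplified from the 3' end in one cycle with biotin labelling and hybridised, per the labels' protocols. The table deposited by the authors gives 1 intensity per probe set and array; the summarization method, the array software and any genome build are not given in the sources used here. All 20 arrays share a 2% trimmed mean of 125.0, and no further scaling was applied. Gene symbols came from the platform annotation, updated by Entrez identifier to GRCm38.p6 RefSeq names for 34741 of 34945 single-symbol probe sets, while 932 have several symbols and 9160 none listed. Of these 45037 probe sets (64 controls left out), the 37292 above the 40th percentile of their array on at least 2 arrays were tested, all 8 members among them.

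Values were log2(intensity + 7.84), the constant being the pooled 20th percentile. limma 3.58.1 in R 4.3.3 (lmFit, eBayes with trend, 10 residual and 9.37 prior degrees of freedom) was fitted with day as a factor, tests two-sided, p-values adjusted by Benjamini-Hochberg, and was tested on simulated data. The number of arrays, 2 a day, limits precision. Members, gene lists and comparisons were chosen with earlier results of these data known. All members are named, plus the 3 most correlated genes each and, from each list, at most 4 largest differences and genes needed to place a result. Lists use the probe set with the highest mean. Figures used matplotlib 3.10.9.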

Additional observations from a re-analysis of the deposited data

How the results depend on the processing

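Over 13 alternatives (quantile normalization, a common median, 2 other added constants, a floor, 2 other filters, 1 probe set a gene, no trend, array weights, a replicate block, a stricter threshold and the compared days alone), 246 of 256 differences of the lead probe sets kept direction and side of the threshold, and 385 of 400 did when each of the 20 arrays was left out in turn. Counts of members equalled those reported in 57 of 76 cases under the alternatives and in 99 of 120 without 1 array. Members called for day 8 against day 0 were 6 with a common median, array weights or the compared days alone, and for day 35 against day 0 they were 8 under quantile normalization and 6 with the constant at the 40th percentile, the floor, the filter at the 60th percentile or an adjusted p under 0.01. With 1 probe set a gene, 3 member probe sets were called for day 8 against day 0, 4 passed the F test and 8 were called over the steps, since it holds 5 probe sets in place of 8. Day 35 then had 3 called against day 20 and 5 against day 0. Under quantile normalization 1 was called for day 20 against day 8, where Ptgds stood at −0.97, and the Vcam1 probe set 1415989_at was called for day 35 against day 0 (1.07). Hsd11b1 for day 8 against day 0 was called with a common median (1.43), 1 probe set a gene, array weights and the compared days alone (1.31 in each), and for day 35 against day 0 it was lost with an added constant at the 40th percentile (0.89), the floor (0.36) and an adjusted p under 0.01 (1.27). The common median turned 2 uncalled values near 0, Sult1e1 for day 8 against day 0 (0.0095) and Vcam1 for day 20 against day 8 (−0.25). Hsd11b1 has no value with the filter at the 60th percentile, which removes its probe set. The causes were not tested.

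Leaving out 1 array gave 5 to 6 called members for day 8 against day 0, 6 to 7 for day 35 against day 0, 7 to 8 passing the F test, 11 to 15 calls over the steps, and 1 to 2 called members and −1.57 to −0.77 for Ptgds for day 20 against day 8, −0.44 to 0.41 for Sult1e1 for day 8 against day 0 and −0.13 to 0.95 for day 20 against day 8, −0.044 to 0.070 for Vcam1 for day 20 against day 8, and for Hsd11b1 0.91 to 1.72 for day 8 against day 0 and 0.87 to 1.68 for day 35 against day 0. Hsd11b1 passed for day 8 against day 0 without any 1 of the arrays of days 3 and 30. Samples of 1 day share numbers with those of other days, but deviations did not go together (45 pairs of days, correlations from −0.03 to 0.09). The numbers were therefore not used to pair the samples, although this check cannot exclude that samples of 1 number share a batch. With a replicate block the counts of members called were again 5, 2, 4 and 7 in the 4 comparisons, and no call of a member changed. Over all probe sets, 1816 were called for day 8 against day 0, but 1163 with the constant at the 40th percentile and 1207 at an adjusted p under 0.01. Likewise 5218 became 3280 with that constant for day 35 against day 20, and 13566 became 9005 with the floor for day 20 against day 8. With 1 probe set a gene, 16428 were tested in place of 37292, and 995, 6569, 2592 and 9018 were called in the 4 comparisons, against 1816, 13566, 5218 and 19034. Sult1e1 up to day 20 and Hsd11b1 lie where signal over background limits what can be read.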
